A study of Mus musculus with 16 samples.

Results

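Subunits of the receptors for glutamate and GABA are described here, 35 genes of the 51912 in the count table, in nuclei sorted from the myenteric plexus of the mouse colon. They were chosen by name, each GRCm38 gene symbol matching a single Ensembl identifier. The rule used no measured value, but earlier results of these data were known when the genes were chosen. The set holds 4 AMPA receptor genes, 5 kainate receptor genes, 1 delta receptor gene, 7 NMDA receptor genes, 6 metabotropic glutamate receptor genes, 10 GABA-A receptor genes and 2 GABA-B receptor genes. Further members of these families were not analysed here.

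All mice were C57BL/6 animals kept specific pathogen-free. Each had received the vector AAV9-CaMKII-EGFPKASH into a vein 5 weeks before the experiment and was injected intraperitoneally 14 hours before the nuclei were isolated, either with 3-methylcholanthrene, an agonist of the aryl hydrocarbon receptor (AhR), or with corn oil, its vehicle. The KASH tag holds EGFP at the nuclear envelope, so that a sorter could part EGFP-positive nuclei, labelled neuronal, from EGFP-negative nuclei, labelled non-neuronal. Crossing the 2 populations with the 2 injections gave 4 groups of 4 libraries: neuronal control, neuronal agonist, non-neuronal control and non-neuronal agonist. The EGFP-positive gate holds nuclei that the vector reached and in which the CaMKII promoter was active, and the EGFP-negative gate holds all others. Age, sex and dose are not stated, and neither is whether a library came from 1 mouse or a pool, so p-values measure the spread between these libraries.

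Glutamate opens AMPA, kainate and NMDA receptors, which are cation channels built of several subunits, and it acts more slowly through metabotropic receptors, which signal through G proteins. GABA opens GABA-A receptors, chloride channels of mixed alpha, beta, gamma and rarer subunits, and acts on GABA-B receptors, which couple to G proteins and need both of their subunits. Myenteric neurons, which drive the movements of the gut, are known to respond to both transmitters. AhR is a transcription factor that enters the nucleus on binding such ligands and, with its partner ARNT, binds DNA elements with the core GCGTG.

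Total counts ran from 2663738 to 4902303 per library. Mitochondrially encoded genes took 1.95 to 6.11% of counts in neuronal control libraries, 1.77 to 5.28% in neuronal agonist, 11.2 to 26.3% in non-neuronal control and 10.3 to 42.8% in non-neuronal agonist libraries, of which libraries 1 and 2 exceeded 30%. The summed level of 10 pan-neuronal markers was 3027 to 3595 CPM in neuronal control libraries and 146 to 457 CPM in non-neuronal control libraries, and all 10 had counts in every neuronal library. Neuronal agonist library 1 stood apart, with a pan-neuronal sum of 5346 CPM and the fewest detected genes of the 16, 17293. Markers of 6 of 7 other cell types were lower in neuronal control libraries: 6 enteric glia markers summed to 7.70 to 23.8 CPM in neuronal against 80.8 to 133 CPM in non-neuronal control libraries, 6 smooth muscle markers to 206 to 857 against 3872 to 12294 CPM, and 5 epithelial markers to 11.8 to 82.7 against 1508 to 14226 CPM. Endothelial, macrophage and fibroblast sums were the others of the 6. The exception was the sum of 3 markers of interstitial cells of Cajal, at 383 to 462 CPM in neuronal and 224 to 532 CPM in non-neuronal control libraries. Etv1 made up most of the neuronal sum, while the defining gene Kit stood at 2.09 to 4.11 against 96.9 to 188 CPM. The glial factor Sox10 had no count in 2 of the 4 neuronal libraries of either injection. Levels below are CPM after TMM scaling over all 16 libraries, listed in the order of libraries 1 to 4.

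Neuronal nuclei carried more transcript of most AMPA and kainate receptor genes and of the metabotropic gene Grm7 than non-neuronal nuclei, in both control and agonist-treated mice. Gria2 and Gria4, which encode the AMPA subunits GluA2 and GluA4, were 19.2-fold and 17.9-fold higher in neuronal nuclei after corn oil, and Grm7, which encodes the presynaptic receptor mGlu7, was 14.9-fold higher. Gabre, the gene of the GABA-A epsilon subunit, ran the other way and was almost confined to the non-neuronal libraries, with 2 counts in the neuronal and 529 in the non-neuronal control libraries. The agonist changed no receptor gene past the threshold in either population. Fewer nuclei of a kind and less RNA in each of them cannot be told apart in such bulk libraries.

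In control mice, 22 of the 35 genes passed the filter on low counts, which a gene can pass through 1 population alone. Of these, 9 were higher in neuronal nuclei at an adjusted p under 0.05, against a background of 11.8% of all genes tested, and 1 was lower, against 13.5%. Every neuronal library lay above every non-neuronal library for 10 of the receptor genes, against 16.3% of all genes. The median log2 fold change was 1.47 over the receptor genes tested and -0.11 over all genes. In agonist-treated mice 20 receptor genes passed the filter, 10 were higher in neuronal nuclei (background 6.67%) and 1 was lower (background 6.97%). Complete separation above was found for 11 of them (background 11.5%), and the medians were 2.88 for the receptor genes and -0.15 for all genes. Both comparisons describe the same 8 genes as higher, namely Gria1, Gria2, Gria4, Grik1, Grik2, Grik4, Grm7 and Gabrg3. Grin1 was called in control mice only and Grid1 and Grm3 in agonist-treated mice only, and for none of the 3 did the difference between the 2 comparisons pass the test (adjusted p = 0.982, 0.705 and 0.554).

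Scaling by library size alone moved the median log2 fold change of all genes. After corn oil it went from -0.11 to 0.11. After the agonist it went from -0.15 to 0.43, and that scaling changed the calls over all genes from 938 higher and 980 lower to 1332 higher and 649 lower.

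**Figure D1:**
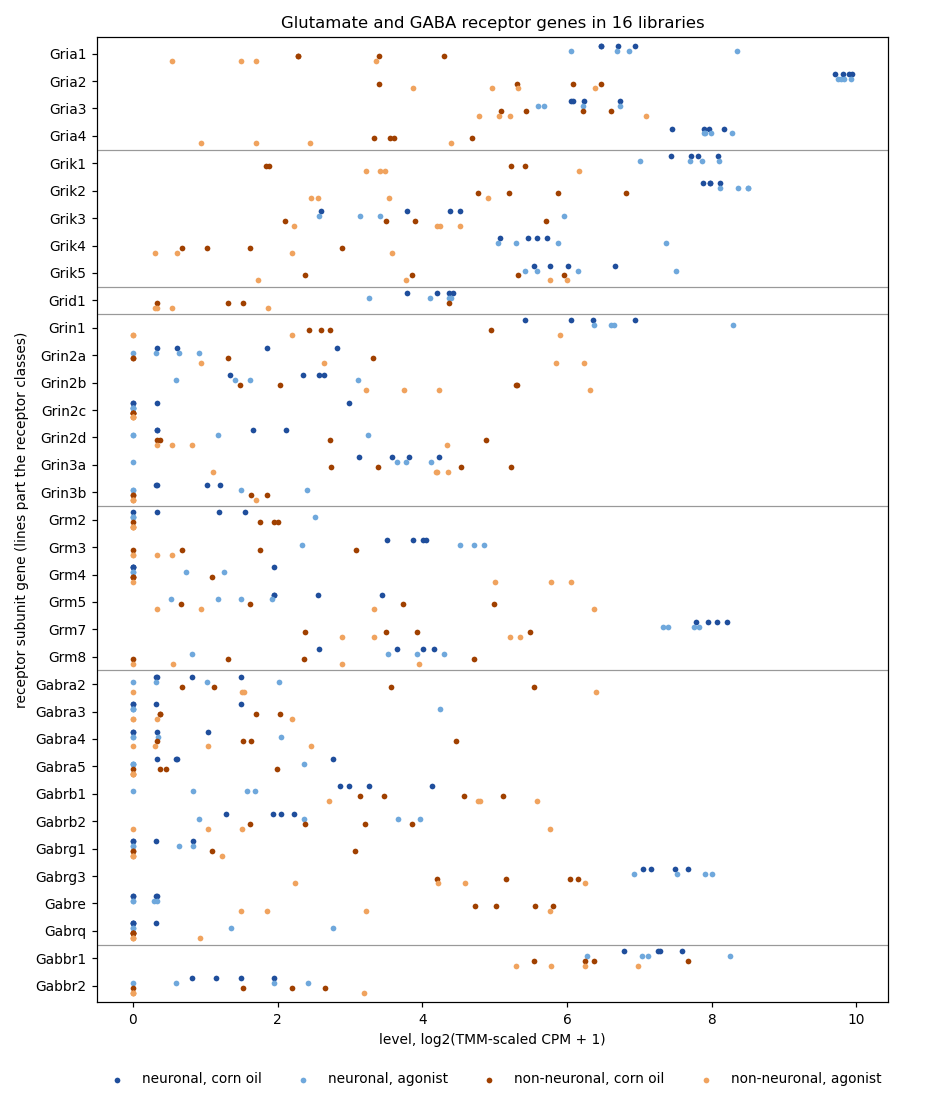
Level of each of the 35 receptor genes in the 16 libraries, as log2(TMM-scaled CPM + 1) on the horizontal axis, with 1 point per library coloured by group and lines between the receptor classes. For Gria2 the 8 neuronal libraries, at 837 to 981 CPM, lie far to the right of the 8 non-neuronal libraries, while Gabre shows the opposite order and many NMDA and GABA-A genes lie near 0.

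The promoter windows of 4 genes on which the population differences turn are shown first, Gria2, Gria4 and Gabrg3 for the neuronal side and Gabre for the non-neuronal side. They span the RefSeq gene start on GRCm38.p6, with most of the window upstream of it, are read 5′ to 3′ on the gene's own strand, and lie at chr3:80802786-80803085 (Gria2), chr9:4796185-4796484 (Gria4), chr7:57387166-57387465 (Gabrg3) and chrX:72274672-72274971 (Gabre), all on the minus strand. Capitals mark, on either strand, the AhR core GCGTG or its reverse complement CACGC, and the right part GGACAGC, or GCTGTCC, of the element RE1. RE1 is bound by REST, a repressor of neuronal genes outside the nervous system.
Gria2: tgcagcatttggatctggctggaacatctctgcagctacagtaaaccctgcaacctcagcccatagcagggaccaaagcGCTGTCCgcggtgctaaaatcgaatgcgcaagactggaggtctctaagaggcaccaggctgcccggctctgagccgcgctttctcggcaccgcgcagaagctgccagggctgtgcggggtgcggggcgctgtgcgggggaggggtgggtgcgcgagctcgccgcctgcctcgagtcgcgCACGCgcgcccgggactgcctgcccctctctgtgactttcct
Gria4: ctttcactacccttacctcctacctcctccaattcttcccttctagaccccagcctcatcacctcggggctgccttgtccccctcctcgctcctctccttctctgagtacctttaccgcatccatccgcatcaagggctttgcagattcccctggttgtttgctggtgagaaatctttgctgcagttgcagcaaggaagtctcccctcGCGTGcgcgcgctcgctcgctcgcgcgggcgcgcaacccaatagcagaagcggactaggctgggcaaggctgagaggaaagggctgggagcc
Gabrg3: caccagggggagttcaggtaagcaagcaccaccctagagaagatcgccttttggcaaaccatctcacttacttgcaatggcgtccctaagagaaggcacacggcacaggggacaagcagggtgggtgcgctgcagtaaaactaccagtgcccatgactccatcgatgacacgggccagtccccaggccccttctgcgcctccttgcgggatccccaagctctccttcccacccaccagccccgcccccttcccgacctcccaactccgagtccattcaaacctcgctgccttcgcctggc
Gabre: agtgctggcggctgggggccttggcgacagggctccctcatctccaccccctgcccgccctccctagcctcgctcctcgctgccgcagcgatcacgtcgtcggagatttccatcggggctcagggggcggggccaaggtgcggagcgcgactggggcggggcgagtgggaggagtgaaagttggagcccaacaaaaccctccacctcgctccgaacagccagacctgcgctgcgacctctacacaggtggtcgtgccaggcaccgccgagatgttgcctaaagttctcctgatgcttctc
The windows of Gria2 and Gria4 each hold 1 AhR core, that of Gria2 also holds the right part of RE1, and those of Gabrg3 and Gabre hold none of these letters. Windows were found for 26 of the 35 genes. The AhR core stood in 14 of these 26, and in 35.15% of the 27025 genes with a window of the same length. The left part of RE1, TTCAGCACC, stood in 1, Grm2 (0.43% of all genes), and the right part in 2, Gria2 and Grm2 (7.59%). A match is a string of letters and not a measured binding site.

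Among the AMPA receptor genes, which encode the channels of fast excitatory transmission, 3 of 4 were higher in neuronal nuclei in both comparisons. Gria2 (ENSMUSG00000033981, chr3:80681450-80802835, minus strand) encodes GluA2, the subunit whose RNA-edited pore residue keeps the channel nearly impermeable to calcium. Gria2 stood at 902, 981, 837 and 958 CPM in neuronal control libraries 1 to 4 and at 883, 857, 969 and 909.7 CPM in neuronal agonist libraries 1 to 4. The non-neuronal libraries showed 66.9, 38.7, 9.57 and 87.5 CPM after corn oil and 13.6, 30.2, 82.9 and 39.1 CPM after the agonist. The neuronal libraries lay within a narrow band, the non-neuronal libraries were low and uneven, and the groups did not overlap. Gria2 differed by a log2 fold change of 4.26 (SE 0.51, adjusted p = 6.62e-05) after corn oil and 4.44 (SE 0.49, adjusted p = 6.89e-05) after the agonist.

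Gria4 (ENSMUSG00000025892, chr9:4417896-4796234, minus strand) encodes GluA4, a subunit with fast kinetics. Gria4 stood at 236, 286, 174 and 248 CPM in neuronal control libraries 1 to 4 and at 239, 254, 310.4 and 237 CPM in neuronal agonist libraries 1 to 4. Non-neuronal nuclei gave 24.9, 11.3, 10.8 and 9.06 CPM (control) and 20.03, 2.26, 4.45 and 0.926 CPM (agonist). The lowest neuronal library was several times the highest non-neuronal library. Neuronal over non-neuronal nuclei gave a log2 fold change of 4.16 (SE 0.37, adjusted p = 9.18e-06) in control mice and 5.21 (SE 0.82, adjusted p = 7.74e-04) in treated mice. Gria1 (ENSMUSG00000020524, chr11:57011387-57330244, plus strand) encodes GluA1, the subunit best known from activity-dependent trafficking. Gria1 stood at 87.97, 104, 122 and 87.6 CPM in neuronal control libraries 1 to 4 and at 325, 115, 102 and 65.5 CPM in neuronal agonist libraries 1 to 4. Outside the neuronal gate it stood at 3.85, 18.8, 3.89 and 9.58 CPM in control and 2.27, 0.451, 1.83 and 9.26 CPM in agonist libraries. Neuronal agonist library 1, which also had the highest pan-neuronal sum, was the highest for Gria1, and no non-neuronal library reached the lowest neuronal one. For Gria1 the log2 fold changes were 3.56 (SE 0.52, adjusted p = 2.68e-04) after corn oil and 5.35 (SE 0.90, adjusted p = 0.00131) after the agonist. Gria3, which encodes GluA3, did not differ between the populations past the threshold: it averaged 78.1 ± 18.4 CPM in neuronal against 61.3 ± 29.3 CPM in non-neuronal control libraries (SD, n = 4), with log2 fold changes of 0.44 (SE 0.37, adjusted p = 0.444) after corn oil and 0.27 (SE 0.66, adjusted p = 0.854) after the agonist. Its libraries overlapped in both comparisons.

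Of the 5 kainate receptor genes, Grik1, Grik2 and Grik4 were higher in neuronal nuclei in both comparisons. Grik1 and Grik2 encode GluK1 and GluK2, which can form channels alone, and Grik4 encodes GluK4, which assembles with them. Grik2 (ENSMUSG00000056073, chr10:49094833-49788766, minus strand) stood at 251, 252, 235 and 275 CPM in neuronal control libraries 1 to 4 and at 361, 277, 329.9 and 360.5 CPM in neuronal agonist libraries 1 to 4. The non-neuronal libraries showed 57.7, 26.3, 35.9 and 112 CPM after corn oil and 4.91, 4.51, 29.02 and 10.6 CPM after the agonist. Neuronal and non-neuronal libraries did not overlap, but non-neuronal control libraries held more Grik2 transcript than most non-neuronal agonist libraries. Grik2 differed by a log2 fold change of 2.21 (SE 0.39, adjusted p = 0.00102) after corn oil and 4.75 (SE 0.61, adjusted p = 1.94e-04) after the agonist.

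Grik1 (ENSMUSG00000022935, chr16:87895900-88290265, minus strand) stood at 208, 272, 173 and 223 CPM in neuronal control libraries 1 to 4 and at 128, 233, 274 and 207 CPM in neuronal agonist libraries 1 to 4. Non-neuronal nuclei gave 42.01, 36.4, 2.69 and 2.59 CPM (control) and 8.31, 70.9, 10.2 and 9.72 CPM (agonist). Non-neuronal libraries were spread widely, agonist library 2 being the highest, yet all lay below the neuronal ones. Neuronal over non-neuronal nuclei gave a log2 fold change of 3.47 (SE 0.74, adjusted p = 0.00361) in control mice and 3.05 (SE 0.73, adjusted p = 0.0113) in treated mice. The call in control mice was lost when the filter on low counts was dropped (adjusted p = 0.0749). Grik4 (ENSMUSG00000032017, chr9:42518135-42944493, minus strand) stood at 51.8, 32.6, 43.3 and 47.1 CPM in neuronal control libraries 1 to 4 and at 164, 58.01, 38.2 and 31.9 CPM in neuronal agonist libraries 1 to 4. Outside the neuronal gate it stood at 2.07, 6.38, 0.598 and 1.04 CPM in control and 10.96, 3.61, 0.523 and 0.231 CPM in agonist libraries. Neuronal agonist library 1 was again the highest. For Grik4 the log2 fold changes were 4.22 (SE 0.70, adjusted p = 6.74e-04) after corn oil and 4.20 (SE 1.13, adjusted p = 0.0219) after the agonist. Without that library the second value was 3.50 and did not pass (adjusted p = 0.0780).

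Grik5, which encodes the other high-affinity subunit GluK5, averaged 65.9 ± 24.4 CPM in neuronal against 29.5 ± 25.8 CPM in non-neuronal control libraries and did not pass the test (log2 fold change 1.24, SE 0.62, adjusted p = 0.174). Grik3, which encodes GluK3, averaged 14.9 ± 7.66 and 19.7 ± 21.5 CPM in the same groups, with a log2 fold change of -0.31 (SE 0.76, adjusted p = 0.813). Neither passed in agonist-treated mice (adjusted p = 0.362 and 0.878). The libraries of both genes overlapped between the populations.

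Grid1 (ENSMUSG00000041078, chr14:34820108-35583379, plus strand) encodes GluD1, a delta receptor that takes part in synapse organization. Grid1 stood at 12.8, 19.8, 17.4 and 20.4 CPM in neuronal control libraries 1 to 4 and at 20.2, 16.2, 19.7 and 8.60 CPM in neuronal agonist libraries 1 to 4. The non-neuronal libraries showed 1.48, 1.88, 19.7 and 0.259 CPM after corn oil and 2.65, 0.451, 0.261 and 0.231 CPM after the agonist. A single non-neuronal control library, number 3, reached the neuronal range, while the non-neuronal agonist libraries were all near 0. Grid1 differed by 1.70 (SE 0.96, adjusted p = 0.233) on the log2 scale in control mice and 4.11 (SE 1.28, adjusted p = 0.0445) in agonist-treated mice. Without non-neuronal control library 3 the control value passed as well (adjusted p = 0.00427, log2 fold change 3.99). The call in agonist-treated mice was lost when the filter on low counts was dropped (adjusted p = 0.110), without any 1 of the 4 neuronal agonist libraries (adjusted p from 0.0687 to 0.114) and without non-neuronal agonist library 2, 3 or 4 (from 0.0819 to 0.0936).

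NMDA receptors need the GluN1 subunit, encoded by Grin1, together with GluN2 or GluN3 subunits. Grin1 (ENSMUSG00000026959, chr2:25291181-25319187, minus strand) stood at 122, 81.3, 65.5 and 41.8 CPM in neuronal control libraries 1 to 4 and at 312, 96.98, 81.8 and 99.6 CPM in neuronal agonist libraries 1 to 4. Non-neuronal nuclei gave 5.62, 30.03, 5.08 and 4.40 CPM (control) and 58.9, 3.61, 0 and 0 CPM (agonist). All neuronal libraries lay above all non-neuronal ones after corn oil, and also after the agonist, although non-neuronal agonist library 1 came close while libraries 3 and 4 had no count. Grin1 differed by a log2 fold change of 2.87 (SE 0.65, adjusted p = 0.00511) after corn oil and 3.18 (SE 1.49, adjusted p = 0.206) after the agonist. Fitting all groups together ended the control call (adjusted p = 0.172), whereas without non-neuronal agonist library 1 the agonist comparison passed (adjusted p = 0.00399), as it did with library size scaling (adjusted p = 0.0431), under the replicate block (adjusted p = 0.00895) and without the 2 libraries over 30% mitochondrial (adjusted p = 7.48e-04). Those 2 are non-neuronal agonist libraries 1 and 2, which held all Grin1 counts of their group (156 and 8). That last fit thus set the neuronal libraries against libraries with no Grin1 count. The antisense gene Grin1os covers 13.5% of the Grin1 exons, and with no stated strand setting reads of the 2 cannot be told apart there. Grin1os held 206 counts over the 16 libraries.

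The glutamate-binding GluN2 genes were sparse in neuronal nuclei. Grin2a, Grin2b, Grin2c and Grin2d together held 152 counts in the neuronal control libraries against 1213 of Grin1, and per kb of exon their sum was 2.64 to 23.3% of Grin1. In the neuronal agonist libraries they held 102 counts against 2354. In non-neuronal nuclei the balance varied by library, with 393 counts of the GluN2 genes against 133 of Grin1 and 36.1 to 1003% per kb of exon after corn oil, and 742 counts against 164 after the agonist, where 2 libraries had no Grin1 count. Grin2a had 38 counts in neuronal control, 7 in neuronal agonist, 29 in non-neuronal control and 339 in non-neuronal agonist libraries and did not pass the filter between populations. In agonist-treated mice it was lower in neuronal nuclei in each of the 7 alternatives that tested it, which included leaving out any 1 neuronal agonist library or non-neuronal agonist library 4 (log2 fold change -6.84 to -5.83, adjusted p = 0.00155 to 0.0411). Its counts in non-neuronal agonist libraries 1 to 4 were 150, 165, 20 and 4. It was not tested with library 1, 2 or 3 of that group left out. The 7 alternatives thus cannot show whether the difference holds without the libraries that carried it. Its non-neuronal counts came mostly from agonist libraries 1 and 2, those with over 30% mitochondrial counts. The counts of Grin2b were 20, 6, 17 and 19 in neuronal control, 2, 35, 8 and 6 in neuronal agonist, 130, 103, 6 and 12 in non-neuronal control and 33, 174, 32 and 77 in non-neuronal agonist libraries, and it was given in full after these values had been seen. Its log2 fold changes of -2.28 (SE 0.95, adjusted p = 0.101) and -3.30 (SE 1.19, adjusted p = 0.0820) did not pass, although its neuronal agonist libraries lay below all non-neuronal agonist libraries in scaled level. It passed in control mice without non-neuronal control library 3 or 4 (adjusted p = 0.0368 and 0.0403), and under DESeq2 in both comparisons (adjusted p = 0.0354 and 0.00692).

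Of the glycine-binding GluN3 genes, Grin3a averaged 12.4 ± 4.21 CPM in neuronal against 18.4 ± 13.9 CPM in non-neuronal control libraries, with overlapping libraries and a log2 fold change of -0.48 (SE 0.64, adjusted p = 0.644). Grin3b had 11, 24, 14 and 5 counts in the neuronal control, neuronal agonist, non-neuronal control and non-neuronal agonist groups, and 32.1% of its exons lie opposite to Tmem259. Grin2c had no count outside the neuronal control libraries, where 27 of its 28 counts came from library 2.

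Among the metabotropic glutamate receptor genes, Grm7 was the abundant member. Grm7 (ENSMUSG00000056755, chr6:110645581-111567230, plus strand) encodes mGlu7, a presynaptic receptor of low glutamate affinity that lowers transmitter release. Grm7 stood at 247, 296, 219 and 269 CPM in neuronal control libraries 1 to 4 and at 159, 167, 226 and 216 CPM in neuronal agonist libraries 1 to 4. Outside the neuronal gate it stood at 10.4, 14.3, 4.19 and 43.8 CPM in control and 6.42, 36.1, 40.01 and 9.03 CPM in agonist libraries. The 8 neuronal libraries lay above the 8 non-neuronal ones, and among the latter control library 4 and agonist library 3 were the highest, as they were for the pan-neuronal sum. Neuronal over non-neuronal nuclei gave a log2 fold change of 3.89 (SE 0.56, adjusted p = 2.46e-04) in control mice and 3.06 (SE 0.63, adjusted p = 0.00497) in treated mice. Grm7 made up 86.9 ± 2.02% of the summed level of the 6 metabotropic genes per kb of exon in neuronal control libraries, and 88.8% per kb of coding sequence.

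Grm3, which encodes the inhibitory group II receptor mGlu3, was called in agonist-treated mice, and its libraries are given after these values had been seen. It stood at 15.2, 15.6, 10.4 and 13.6 CPM in neuronal control and 4.03, 28.02, 25.2 and 21.9 CPM in neuronal agonist libraries. Among non-neuronal libraries the control group gave 2.37, 7.51, 0.598 and 0 CPM and the agonist group 0, 0.451, 0.261 and 0 CPM. Neuronal libraries lay above non-neuronal ones in both comparisons. The log2 fold change was 2.48 (SE 1.03, adjusted p = 0.0988) in control and 6.65 (SE 1.49, adjusted p = 0.00790) in agonist-treated mice, where the non-neuronal side rests on 2 counts against 320. The ratio of these summed counts, scaled for depth, was 130.1 with a 95% exact interval of 35.7 to 1079 that covers counting error only, and leaving out each library in turn gave 86.9 to 216. The fitted value depends on the prior count. In control mice it passed under DESeq2 (adjusted p = 0.0389) and without non-neuronal control library 2 (adjusted p = 0.0191).

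The other metabotropic genes did not pass in either comparison. Grm8, a group III receptor gene like Grm7, averaged 12.1 ± 5.28 CPM in neuronal against 7.70 ± 11.8 CPM in non-neuronal control libraries. Grm5, which encodes the group I receptor mGlu5 that acts through Gq, averaged 5.13 ± 3.32 and 11.4 ± 13.9 CPM, with 2, 82, 41 and 8 counts in the 4 non-neuronal control libraries. Counts of Grm5 were thus gathered in libraries 2 and 3 of that group. Grm2 had 14, 17, 27 and 0 counts in neuronal control, neuronal agonist, non-neuronal control and non-neuronal agonist libraries and was not tested.

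Among the GABA-A receptor genes in control mice, Gabrg3 was higher in neuronal nuclei and Gabre in non-neuronal nuclei. Gabrg3 (ENSMUSG00000055026, chr7:56716465-57387188, minus strand) encodes the gamma3 subunit. Gabrg3 stood at 179.6, 143, 132 and 203 CPM in neuronal control libraries 1 to 4 and at 239.7, 120.2, 183 and 256 CPM in neuronal agonist libraries 1 to 4. The non-neuronal libraries showed 34.6, 64.9, 69.97 and 17.3 CPM after corn oil and 74.8, 23.02, 17.5 and 3.70 CPM after the agonist. Neuronal libraries lay above non-neuronal ones, though the fold after corn oil was smaller than that of Gria1, Gria2 and Gria4, a difference that was not tested. For Gabrg3 the log2 fold changes were 1.91 (SE 0.39, adjusted p = 0.00296) after corn oil and 2.71 (SE 0.72, adjusted p = 0.0207) after the agonist. The call in agonist-treated mice was just lost without non-neuronal agonist library 2 (adjusted p = 0.0510) or 3 (adjusted p = 0.0522). Gabrg3 made up 86.7 ± 4.96% of the level of the 10 GABA-A genes per kb of exon in neuronal control libraries.

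Gabre (ENSMUSG00000031340, chrX:72255999-72274803, minus strand) encodes the epsilon subunit, which gives receptors that can open without GABA and respond little to benzodiazepines. Its counts were 0, 0, 1 and 1 in neuronal control and 0, 1, 1 and 0 in neuronal agonist libraries, against 186, 68, 154 and 121 in non-neuronal control and 141, 4, 10 and 36 in non-neuronal agonist libraries. All non-neuronal libraries lay above all neuronal ones, and in the agonist group most of the counts came from library 1. In control mice Gabre differed by -7.85 (SE 0.82, adjusted p = 2.79e-05) on the log2 scale. From summed counts scaled for depth, non-neuronal nuclei held 313 times the neuronal level after corn oil (95% exact interval 86.2 to 2591) and 117 times after the agonist (32.1 to 977), where it did not pass the filter. These intervals cover counting error only. Without non-neuronal agonist library 1 the ratio after the agonist was 38.6, and leaving out each library in turn gave 235 to 473 after corn oil and 38.6 to 178 after the agonist. Summed smooth muscle, epithelial, glial, endothelial, macrophage and fibroblast markers had higher means in non-neuronal nuclei of both injections. The sum for interstitial cells of Cajal did not, with Etv1 making up most of it in neuronal nuclei. Its members Kit and Ano1 were higher in non-neuronal nuclei, Ano1 at 57.4 to 133 against 0.524 to 7.32 CPM in control libraries. Which nuclei carried Gabre was not tested. The libraries of Gabre are given after its values had been seen, as are those of Gabrb1.

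Gabrb1 (ENSMUSG00000029212, chr5:71658113-72149037, plus strand) encodes the beta1 subunit. It stood at 16.5, 6.93, 6.28 and 8.63 CPM in neuronal control and 0, 1.97, 0.779 and 2.22 CPM in neuronal agonist libraries. Non-neuronal levels of Gabrb1 were 22.8, 10.1, 7.77 and 33.7 CPM after corn oil and 26.8, 26.2, 47.1 and 5.56 CPM after the agonist. Populations overlapped after corn oil and did not overlap after the agonist, where the neuronal libraries were the lower. The populations differed by -0.87 (SE 0.64, adjusted p = 0.367) on the log2 scale in control mice and -4.35 (SE 1.28, adjusted p = 0.0347) in agonist-treated mice. This second call was lost with library size scaling (adjusted p = 0.0813), under the replicate block (0.0700), without the 2 libraries over 30% mitochondrial (0.0859), without neuronal agonist library 2 (0.0780), 3 (0.105) or 4 (0.0629), and without non-neuronal agonist library 1 (0.0507) or 3 (0.0752).

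Gabrb2, which encodes the beta2 subunit, averaged 2.77 ± 0.946 CPM in neuronal against 7.01 ± 5.04 CPM in non-neuronal control libraries and did not pass (log2 fold change -1.25, SE 0.83, adjusted p = 0.315). The alpha subunits form the GABA site together with beta subunits, and the 4 alpha genes among the 35 were nearly absent from neuronal nuclei. Gabra2, Gabra3, Gabra4 and Gabra5 had 12, 8, 5 and 29 counts over the 4 neuronal control libraries, and Gabrg1 and Gabrq, the genes of gamma1 and theta, had 4 and 1. None of these 6 passed the filter in a comparison between populations. Their counts tended to gather in single libraries: 186 of the 199 Gabra2 counts in non-neuronal agonist nuclei came from library 2, 71 of the 84 Gabra4 counts in non-neuronal control nuclei from library 1, and all 71 Gabra3 counts in neuronal agonist nuclei from library 1. No alpha subunit outside these 4 was analysed here.

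GABA-B receptors work as pairs of GABBR1, which binds GABA, and GABBR2, which couples to the G protein. Gabbr1 (ENSMUSG00000024462, chr17:37045966-37075067, plus strand) stood at 152, 155, 192 and 109 CPM in neuronal control libraries 1 to 4 and at 305, 138, 131 and 76.3 CPM in neuronal agonist libraries 1 to 4. Non-neuronal nuclei gave 81.7, 75.5, 45.8 and 204 CPM (control) and 75.2, 38.4, 125 and 53.7 CPM (agonist). Both populations carried it, and their libraries overlapped. Gabbr1 differed by a log2 fold change of 0.66 (SE 0.40, adjusted p = 0.268) after corn oil and 1.12 (SE 0.53, adjusted p = 0.201) after the agonist. Without non-neuronal control library 4, its highest library in that group, the control comparison passed (adjusted p = 0.00650). Gabbr2 had 26 counts in the neuronal control libraries against 2395 of Gabbr1, which put it at 0.578 to 2.20% of Gabbr1 per kb of exon. It had 33, 35 and 18 counts in the neuronal agonist, non-neuronal control and non-neuronal agonist libraries.

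**Figure D2:**
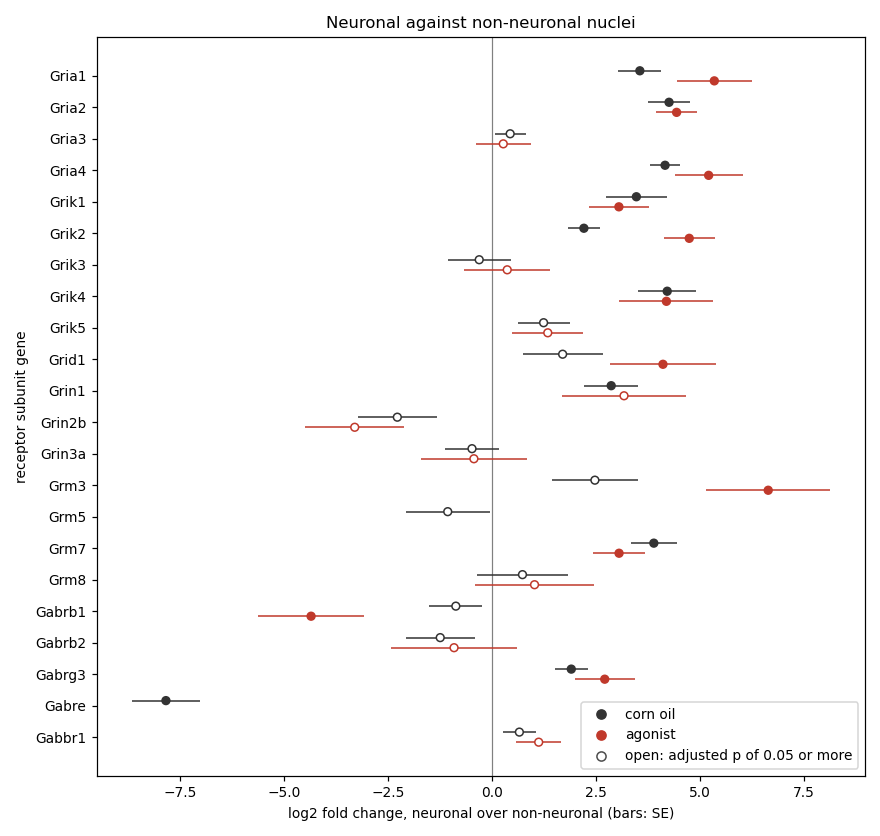
Log2 fold change of neuronal over non-neuronal nuclei (horizontal axis, bars are SE) for the receptor genes that passed the count filter, in control mice (dark) and agonist-treated mice (red), 4 libraries against 4 in each, with open symbols for an adjusted p of 0.05 or more. Gria1, Gria2, Gria4, Grik1, Grik4 and Grm7 sit above 3 on this scale in both comparisons, and Gabre sits at -7.85 in control mice.

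Levels of different genes were compared per kb of length, since longer transcripts gather more reads. In neuronal control nuclei Gria2 was the highest of the 35 at 59.1 ± 4.14 CPM per kb of exon (SD, n = 4), followed by Grm7 at 43.8 ± 5.56, Gria4 at 37.5 ± 7.38 and Grik1 at 32.6 ± 6.10. Gria2 lay above Grm7 by more than the larger of their SDs, while Grm7 and Gria4, and Gria4 and Grik1, differed by less than that. Gabbr1 (19.6 ± 4.35), Grik2 (19.1 ± 1.24), Gria1 (16.6 ± 2.67), Gabrg3 (13.8 ± 2.74) and Grik5 (12.7 ± 4.72) came next, and Grin1 was the tenth. The order depends on the length used. Per kb of coding sequence Gria2 remained the first at 347 ± 24.3, Gabrg3 was the second at 117 ± 23.3 and Grm7 and Grik2 followed at 93.1 ± 11.8 and 93.1 ± 6.04, and 9 of the 10 highest genes were shared by both scales.

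The 4 AMPA genes together reached 121 ± 10.9 CPM per kb of exon in neuronal control libraries, the kainate genes 73.5 ± 3.59, the metabotropic genes 50.3 ± 5.79, the GABA-B genes 19.8 ± 4.31, the GABA-A genes 15.8 ± 2.83 and the NMDA genes 10.1 ± 3.34. AMPA and kainate transcripts thus stood above NMDA transcripts in these nuclei on this scale, over the genes analysed. The order of the classes depends on the length used. Per kb of coding sequence the GABA-A genes reached 128 ± 25.4, above the metabotropic genes at 105 ± 11.5, the GABA-B genes at 53.3 ± 11.6 and the NMDA genes at 33.1 ± 11.05. Gria2 made up 48.9 ± 1.11% of the AMPA level per kb of exon and 69.4% per kb of coding sequence, and Gria4 30.7% and 17.3%. Among the kainate genes the leading member changed with the scale: Grik1 made up 44.2% and Grik2 26.1% per kb of exon, against 35.9% and 43.7% per kb of coding sequence. In non-neuronal control libraries the AMPA sum was 13.2 ± 5.43 CPM per kb of exon, and Gria3 made up 47.1% of it, against 6.53% in neuronal control libraries.

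**Figure D3:**
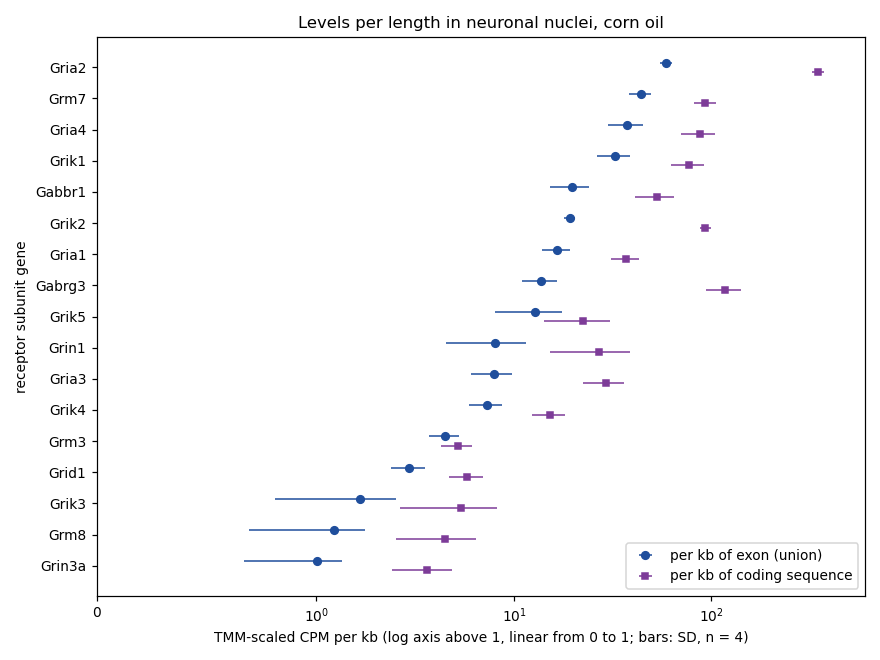
Level per kb in neuronal control nuclei for the 17 receptor genes that rank highest per kb of exon, as mean and SD over 4 libraries, per kb of exon (circles) and per kb of coding sequence (squares), on an axis that is logarithmic above 1 and linear below it. Gria2 leads on both scales, at 59.1 and 347 CPM per kb, and Gabrg3 moves from the eighth place to the second.

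Non-neuronal libraries were not free of neuronal transcripts, and the receptor genes lay below, within or above the range of that trace. The summed pan-neuronal markers in non-neuronal nuclei were 7.48% of the neuronal mean after corn oil (4.35 to 13.6% over libraries) and 5.96% after the agonist (3.30 to 11.1%). In control mice the same ratio was 5.51% for Gria2, 5.92% for Gria4, 7.04% for Grm7, 8.998% for Gria1 and 9.55% for Grik1, all within the range of the markers over libraries. It was 22.9% for Grik2 and 28.4% for Gabrg3, above that range, and 44.8% for Grik5, 66.95% for Gabbr1 and 78.5% for Gria3. After the agonist it was 4.58% for Gria2, 3.70% for Grik2, 14.9% for Gabrg3, 44.98% for Gabbr1 and 83.4% for Gria3. Grm7 and Grik1, at 11.9% and 11.8%, then stood just above the range of the markers over libraries, and Gria1 and Gria4, at 2.27% and 2.66%, below it. These ratios describe means over 4 libraries, and the part of neuronal RNA in each gene's non-neuronal level was not tested.

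The second question of the design was whether the AhR agonist altered the receptor genes within each population. In neuronal nuclei the means of several abundant subunits differed by less than the larger of their SDs, though not of all. Gria2 averaged 919.6 ± 64.4 CPM after corn oil and 904 ± 47.9 CPM after the agonist (SD, n = 4). Gria4 averaged 236 ± 46.5 and 260.1 ± 34.3, and Gabrg3 164 ± 32.7 and 199.8 ± 61.6. The means of Grik2, at 254 ± 16.4 and 332 ± 39.5, and of Grm7, at 258 ± 32.7 and 192 ± 33.6, differed by more than the larger SD. Of 21 receptor genes tested with edgeR's quasi-likelihood test, 0 were called higher (background 0%) and 0 lower (background 0%), with adjusted p of at least 0.903. At an unadjusted p under 0.05 there was 1, against 5.01% of all genes, and DESeq2 called 0. On 21 genes, a count of 1 lies near that share. Their median log2 fold change was 0.10, and that of all genes 0.08. Precision differed much between genes: the SE was 0.14 for Gria2 with a log2 fold change of -0.02, and 0.18 for Grik2 with 0.39, whereas for Gabrb2 it was 0.88 with 1.49.

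The gene with the low unadjusted p was Gabrb1, the beta1 subunit gene, whose neuronal counts were 63, 27, 26 and 33 after corn oil and 0, 9, 3 and 8 after the agonist. Its 4 agonist libraries lay below its 4 control libraries, with a log2 fold change of -2.92 (SE 0.97, adjusted p = 0.903). Grm5 showed the same separation on fewer counts, 11, 19, 41 and 11 against 5, 2, 7 and 10, with -1.70 (SE 0.89, adjusted p = 0.903). Neither passed the threshold. The share of all genes that separate in this way is not given here, so no weight is put on either separation. Grm7 averaged 258 ± 32.7 CPM after corn oil and 192 ± 33.6 CPM after the agonist, with a log2 fold change of -0.43 (SE 0.21, adjusted p = 0.903) and overlapping libraries. Grin1, Grik4 and Gria1 had values of 0.93 (SE 0.45, adjusted p = 0.903), 0.74 (SE 0.49, adjusted p = 0.907) and 0.60 (SE 0.42, adjusted p = 0.913), and in each the highest library was neuronal agonist 1, which had the highest pan-neuronal sum.

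In non-neuronal nuclei 20 receptor genes were tested, and again 0 were called higher (background 0.0135%) and 0 lower (background 0%) with edgeR, 2 having an unadjusted p under 0.05 (4.82% of all genes) and DESeq2 calling 0. These were Grik2, with 195, 70, 120 and 433 counts after corn oil and 13, 10, 111 and 46 after the agonist, and Grin2a, the gene of GluN2A, with 0, 24, 5 and 0 and 150, 165, 20 and 4. The log2 fold change was -2.19 (SE 0.81, adjusted p = 0.954) for Grik2 and 3.73 (SE 1.58, adjusted p = 0.954) for Grin2a. Grik2 libraries overlapped, since agonist library 3 exceeded control library 2, and Grin2a counts were again mostly from agonist libraries 1 and 2. Grm4, a group III metabotropic gene, had 0, 3, 0 and 0 counts after corn oil and 143, 145, 0 and 135 after the agonist and did not pass the filter. It was the 1 receptor gene called when all genes were tested without a filter (adjusted p = 0.00241). Between the populations of agonist-treated mice, Grm4 passed the filter and was lower in neuronal nuclei when neuronal agonist library 4 (adjusted p = 0.0336) or non-neuronal agonist library 3 (adjusted p = 0.00562) was left out. Library 3 is the non-neuronal agonist library with a count of 0, and Grm4 could pass the filter through libraries 1, 2 and 4, which carried it. Leaving out library 1, 2 or 4 of that group gave no call. These results thus cannot show whether the difference holds without a library that carried it. The median SE over the receptor genes was 1.01 here and 0.46 in neuronal nuclei, so smaller changes could be resolved in the neuronal libraries.

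The response to the agonist was compared between the populations as an interaction over all 16 libraries. Of 27 receptor genes tested with edgeR, 0 differed upward (background 0%) and 0 downward (background 0%), with 5 at an unadjusted p under 0.05 (7.99% of all genes) and 0 calls by DESeq2. The lowest p belonged to Grik2, whose response in neuronal nuclei exceeded that in non-neuronal nuclei by 2.61 (SE 0.69, adjusted p = 0.376) on the log2 scale. It passed without non-neuronal agonist library 3, the highest of its group for Grik2 (adjusted p = 0.0412), and without the count filter (adjusted p = 0.0116). The other genes were Grm4 at -7.51 (SE 2.49, adjusted p = 0.455), Grin2a at -6.10 (SE 2.13, adjusted p = 0.496), Gabrb1 at -3.42 (SE 1.32, adjusted p = 0.532) and Grm3 at 4.26 (SE 1.71, adjusted p = 0.554). Each of these 4 has few or no counts in at least 1 of the groups.

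**Figure D4:**
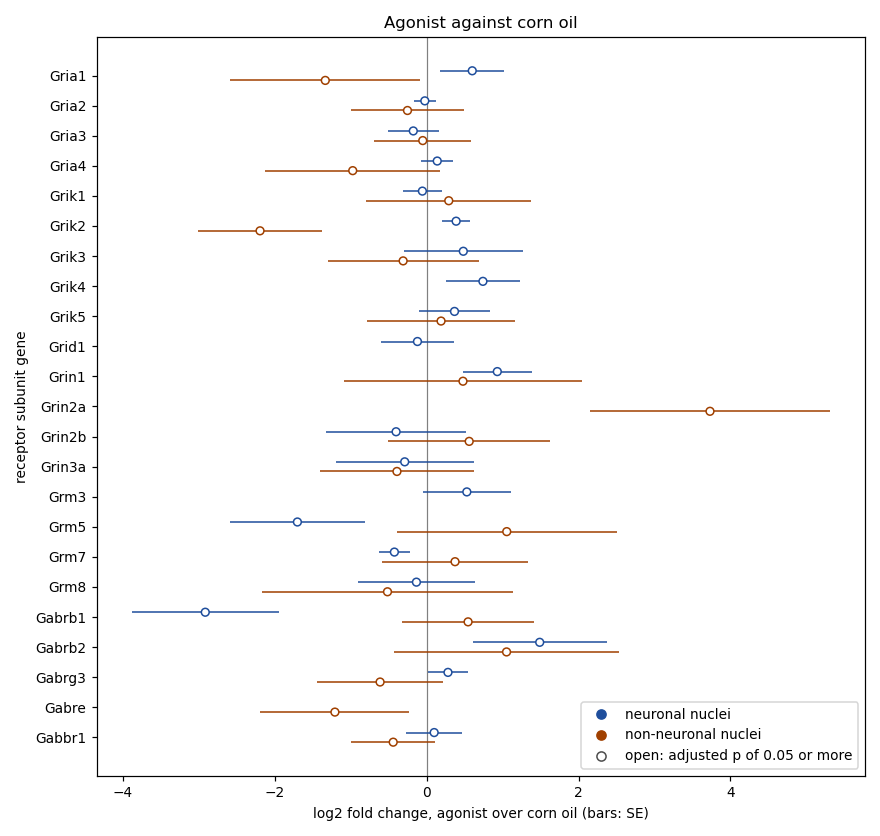
Log2 fold change of agonist over corn oil (horizontal axis, bars are SE) in neuronal nuclei (blue) and non-neuronal nuclei (brown) for the receptor genes tested, 4 libraries against 4 in each. All symbols are open, since no gene reached an adjusted p under 0.05, and the bars of Gria2 span 0.14 either side in neuronal and 0.74 in non-neuronal nuclei.

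Genes that work with these receptors were examined as 3 lists. Of 41 glutamate receptor partners and scaffolds, 31 were tested in control mice, 14 were higher in neuronal nuclei (background 11.8%) and 1 was lower (background 13.5%), with a median log2 fold change of 1.27 against -0.11 for all genes. Higher genes included the scaffolds Dlg2 at 3.45 (SE 0.33) and Grip1, which binds AMPA receptor tails, at 4.35 (SE 0.44), the linker Dlgap1 at 3.65 (SE 0.37), the kinase genes Camk2a at 3.80 (SE 0.57) and Camk2b at 3.71 (SE 0.64), the kainate receptor auxiliary gene Neto1 at 5.32 (SE 0.81), and Shisa7 at 3.48 (SE 0.55). The lower gene was Dlg1, a broadly expressed scaffold, at -1.67 (SE 0.27). In agonist-treated mice 29 were tested, 7 were higher (background 6.67%) and 1 was lower (background 6.97%), with a median of 1.87. The higher genes there were Dlg2, Camk2a, Shisa7, Dlgap1, Grip1, Camk2b and the scaffold gene Shank1 at 4.93 (SE 0.93), and the lower gene was again Dlg1, at -2.36 (SE 0.52). Camk2a and Camk2b belong to the gene family whose promoter drove the vector's EGFP. Nuclei were sorted on that EGFP, so the counts of higher genes include genes tied to the gate.

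Of 18 GABA receptor partners, 15 were tested in control mice, 3 were higher and 1 was lower, with a median of 0.53. On 15 genes, such counts lie near the background shares of 11.8% and 13.5%. The higher ones were Iqsec3, a gephyrin-binding exchange factor, at 2.85 (SE 0.40), Kctd8, an auxiliary subunit of GABA-B receptors, at 2.91 (SE 1.00), and Shisa7, which stands in both lists. Slc12a2, the chloride importer NKCC1, was lower at -1.57 (SE 0.25). In agonist-treated mice 15 were tested, 2 were higher (background 6.67%) and 1 was lower (background 6.97%). The higher genes were Shisa7 and the GABA-A auxiliary gene Lhfpl4 at 5.24 (SE 1.21), while Slc12a2 was lower at -1.92 (SE 0.55).

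Of 28 genes for the supply and uptake of glutamate and GABA, 17 were tested in control mice, 2 were higher and 3 were lower, with a median of -0.79, and these counts too lie near the background shares. Slc17a6, the vesicular glutamate transporter VGLUT2, was among the higher genes, at 3.29 (SE 1.01). The glutamine transporters Slc38a1 and Slc38a2 and the glutamate transporter Slc1a1 were lower, at -1.27 (SE 0.29), -1.13 (SE 0.25) and -3.33 (SE 1.12). In agonist-treated mice 17 were tested, 1 was higher (background 6.67%) and 3 were lower (background 6.97%). The lower genes were Slc1a3, Maob and Slc38a2, at -5.11 (SE 1.44), -5.42 (SE 1.50) and -1.48 (SE 0.41). DESeq2 called 0 of this list higher there (10.1% of all genes) and 4 lower (11.7%). With edgeR the agonist changed 0 genes of the 3 lists past the threshold in either population, and for 0 did the response differ between populations. DESeq2 also called 0 for either population, and for the difference of responses it called Shank1, Shisa7, Lhfpl4 and the transporter gene Slc6a12, all upward, against 0.411% of all genes upward and 0.177% downward. At an unadjusted p under 0.05 there were 3, 1 and 1 genes of the 3 lists in neuronal nuclei (5.01% of all genes), 2, 0 and 2 in non-neuronal nuclei (4.82%), and 3, 3 and 3 for the difference (7.99%).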

How the data were processed

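RNA was measured in 16 libraries of nuclei, 4 in each of 4 groups taken from the titles in the labels. The authors deposited 1 table per library of RSEM expected counts per gene. RSEM 1.3.0, STAR 2.5.2 and DESeq2 1.10.1 are named with GRCm38 in the submitters' processing notes; which annotation release and strand setting were used is not given in the sources used here. Per the labels' protocols, cDNA came from amplified nuclear RNA and was sequenced as 75 bp single-end reads, so that reads of amplified molecules are not independent. Expected counts, 89.2 to 94.3% of which were whole, were rounded. Symbols were found for 51719 of 51912 Ensembl identifiers, and 193 had none; gene lengths and positions are those of GENCODE M21 on GRCm38.

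Each comparison was fitted on its own groups over all genes with edgeR 4.0.16 in R 4.3.3 (quasi-likelihood test, two-sided, TMM scaling, genes kept by a minimum count of 10 and total of 15), with Benjamini-Hochberg adjustment and a threshold of 0.05; the interaction used all libraries. Log2 fold changes carry an SE taken from the test statistic. The fitting was tested on simulated data. DESeq2 1.42.0, other scaling, filters, a replicate block and leaving out libraries were tried as alternatives. Replicates of a group were checked and were not duplicates (chi-square per degree of freedom at least 9.67). The receptor genes and the lists were chosen with earlier results of these data known. Libraries were given in full for genes called in both comparisons of populations and, for each class without such a gene, the tested gene with the lowest p in control mice. Up to 8 called genes per list and comparison, those with the lowest p, could be named. Protein sequences were not used here, and the values of 1 gene are not reported here.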

Additional observations from a re-analysis of the deposited data

Results flagged for a closer look

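Within each group of 4 libraries, a highest or lowest value was singled out when its gap to the next library, as a share of the group's range, exceeded Dixon's 95% critical value for 4 samples. This was done for the 15 receptor genes whose libraries are given for both comparisons, 60 groups in all, of which 9 were singled out; chance does so in about 1 in 20 groups. Gria4 stood at 24.9 CPM in non-neuronal control library 1, above the other libraries of its group. Grik1 stood at 70.9 CPM in non-neuronal agonist library 2. Grid1 reached 19.7 CPM in non-neuronal control library 3, within the neuronal range, and 2.65 CPM in non-neuronal agonist library 1, where the others were under 0.5 CPM. Grin1 stood apart in 3 groups: at 312 CPM in neuronal agonist library 1, at 30.03 CPM in non-neuronal control library 2 and at 58.9 CPM in non-neuronal agonist library 1. Grin2b stood at 78.5 CPM in non-neuronal agonist library 2 and Gabre at 53.3 CPM in non-neuronal agonist library 1. What sets these libraries apart was not tested.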

How the results depend on the processing

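No receptor gene called as reported changed direction under any alternative that gave it a value. The number of receptor genes higher in neuronal nuclei was 8 to 10 over all alternatives in control mice (9 as reported) and 8 to 11 in agonist-treated mice (10). Calls higher among all genes ran from 1047 to 2259 and from 686 to 1959 in these 2 comparisons. The number of receptor genes lower, 1 in control mice, was 2 with DESeq2, 2 without the count filter (adding Gabra2) and 1 to 2 on leaving out 1 library. Among all genes 2065 of 15285 were lower as reported and 3499 of 40042 without the filter. In agonist-treated mice the number of receptor genes lower was 1 as reported, 0 with library size scaling, 2 with DESeq2 and 4 without the filter. It was 5 with all groups in 1 fit, 0 without the libraries over 30% mitochondrial and 0 to 2 on leaving out 1 library. The genes so gained were Grin2a, Grin2b, Grm4 and Gabre. Calls lower among all genes moved too, from 980 of 14065 as reported to 649 with library size scaling. They were 2127 of 35415 without the filter, 2631 of 18566 with all groups in 1 fit and 869 of 17204 without the libraries over 30% mitochondrial. The agonist count of 0 in non-neuronal nuclei became 1 (Grm4) without the filter, where 65 of 39733 genes were called higher. The count of 0 for a difference of responses became 1 (Grik2) without the filter, 1 (Grin1) without the libraries over 30% mitochondrial, and 0 to 1 on leaving out 1 library. In the Grin1 case the non-neuronal agonist libraries left had no Grin1 count. Among all genes 72 of 42528 differed upward without the filter and 5 of 21947 without the libraries over 30% mitochondrial. Over all genes, DESeq2 called 2108 higher and 2661 lower in control mice and 1374 and 1579 in agonist-treated mice, where edgeR called 1811, 2065, 938 and 980.

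With the replicate number as a replicate block, 9 receptor genes were higher and 1 lower in control mice, and 10 and 0 in agonist-treated mice, where the calls of Grid1 (adjusted p = 0.0576) and Gabrb1 (adjusted p = 0.0700) were lost and that of Grin1 (adjusted p = 0.00895) was gained. Correlations of same-numbered libraries were weak, from -0.10 to 0.18 over the 4 comparisons, so the numbers were not taken as pairs. Between the populations of control mice they were -0.010 to 0.055, against -0.047 to 0.016 for other numbers. In agonist-treated mice they were 0.0046 to 0.074, against -0.058 to 0.041. In the 4 comparisons 3, 2, 1 and 2 libraries of 4 correlated best with their own number. Pairing between populations is thus not excluded. Counts of a few per group limit the sparse NMDA, GABA-A and metabotropic genes.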

Other observations

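Genes of the GABA-A family lie in clusters, and neighbours within a cluster differed widely in level. On chromosome 7, Gabrg3 and Gabra5 had 2564 and 29 counts over the neuronal control libraries. On chromosome X, Gabre, Gabra3 and Gabrq had 529, 20 and 0 counts over the non-neuronal control libraries. On chromosome 5, Gabrb1, Gabra2, Gabra4 and Gabrg1 had 149, 12, 5 and 4 counts over the neuronal control libraries and 260, 211, 84 and 28 over the non-neuronal control libraries. In each cluster 1 gene thus held most of the counts in at least 1 population. These are counts per gene, not per length, and they were compared after the values had been seen, with no test.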
